A study of Mus musculus with 6 samples.

Results

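The clustered protocadherins were described in fetal mouse heart. Members were taken by name, as genes whose symbol begins with Pcdha, Pcdhb, Pcdhga, Pcdhgb or Pcdhgc followed by a digit, or Pcdhac followed by a digit. The rule found 53 of the 31529 genes in the deposited table. They were 10 alpha genes, 21 beta genes and 22 gamma genes, and the gamma genes were 12 of type A, 7 of type B and 3 of the C-type. RNA-seq libraries came from wild-type hearts of the outbred ICR stock, 3 taken at embryonic day 18.5 (E18.5) and 3 at embryonic day 16.5 (E16.5). No group carried an allele, transgene or treatment, and both stages shared the tissue and the genotype. The labels do not state whether hearts were pooled or which litters they came from, so p-values measure the spread between these libraries.

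Clustered protocadherins are cadherin-like proteins of the cell surface that bind the same isoform on a neighbouring cell. They are best known in neurons, where a cell uses a few isoforms as a surface identity that lets its own branches recognise and avoid each other. In the alpha and gamma clusters each gene contributes its own first exon, with its own promoter, which is spliced to constant exons that all genes of the cluster share. Beta genes have no constant exons. Promoters are chosen with the help of CTCF and cohesin, and an antisense RNA and DNA methylation take part in this choice. The C-type genes at the end of the alpha and gamma clusters are known for steadier use across cells than the alternate genes.

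All 53 genes were found by identifier in GENCODE release M21 on GRCm38, where they lie on the plus strand of chromosome 18. The span runs from the start of Pcdha1 at 36930184 to the end of the gamma cluster at 37841873, in the order alpha, beta, gamma. The alpha constant exons had 59, 89 and 2712 bases, and the gamma constant exons had 59, 89 and 1971 bases. As a measure of sequence that genes share, 1 transcript of each gene was read in stretches of 150 bases. Stretches that also occur in a transcript of another gene were counted. In the gamma cluster the shared portion was between 40% and 65% of stretches for 21 of 22 genes, with a median of 43.2%. Pcdhgb5, for which the transcript read is a single exon, was the exception at 0.317%. The gamma constant exons of 59 and 89 bases are nevertheless annotated for all 22 gamma genes, Pcdhgb5 included. In the beta cluster 17 of 21 genes shared no such stretch, and the highest value was 6.72% in Pcdhb21, whose span overlaps that of Pcdhb22. For Pcdhga10, the ratio of count to FPKM (fragments scaled to transcript length and library size) implied a length of 4732 bases. This was the length of the annotated transcript with its constant exons. In some other gamma genes the implied length was above that of the transcript read. It was 7686 against 4741 bases in Pcdhgc5, 6665 against 5080 in Pcdhga12 and 6750 against 4569 in Pcdhgb5. For such genes the shared portion may not describe what was counted. Reads from shared stretches fit more than 1 gene, so values of single alpha and gamma genes that share them are uncertain. How such reads entered the cluster sums was not tested. Pcdha6, Pcdha7, Pcdha8, Pcdhac1 and Pcdhb1 are not analysed here.

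The estimated counts summed to between 61443414 and 71510191 in E18.5 libraries and to between 67082123 and 77237333 in E16.5 libraries. Mitochondrial genes took between 25.2% and 33.5% of the counts at E18.5 and between 19.9% and 41.4% at E16.5. E16.5 replicate 2 stood apart, with the lowest mitochondrial share and the highest share of adult globin, 2.87%. Cardiomyocyte markers were abundant in every library, with summed levels between 39780 and 48371 CPM at E18.5 and between 34847 and 43308 CPM at E16.5. CPM here is the estimated count relative to the effective size of the library by TMM. In 19959 tested genes, 30 differed between the stages at an adjusted p under 0.05 by edgeR, which is 0.15% of them. Of these, 19 were higher at E18.5 (0.0952%) and 11 were lower (0.0551%).

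Clustered protocadherin RNA in the fetal heart was mostly gamma RNA. The gamma genes summed to 157, 145 and 147 CPM in E18.5 replicates 1, 2 and 3, against 169, 170 and 177 CPM in E16.5 replicates 1, 2 and 3. All 3 E18.5 libraries lay below all 3 E16.5 libraries on this scale, with means of 150 ± 6.66 CPM and 172 ± 4.17 CPM (SD, n = 3 each). Among single tested genes, 8.02% had all E18.5 libraries below all E16.5 libraries. The difference in the gamma sum was a log2 change of −0.20 ± 0.12 (SE) and did not pass the edgeR test (adjusted p = 0.625). An exact two-sided permutation test on the sum gave p = 0.1, the smallest that 3 libraries against 3 allow. On the FPKM scale the stages overlapped, with gamma sums of 24.7, 26.9 and 29.0 at E18.5 and of 23.3, 35.5 and 27.3 at E16.5. In bulk tissue, fewer cells that carry a transcript and less of it per cell cannot be told apart.

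The beta genes together came to 18.1, 18.1 and 17.4 CPM in the E18.5 libraries, against 14.8, 20.9 and 18.6 CPM in the E16.5 libraries. The E18.5 values lay within the range of the E16.5 values. The beta sum had a log2 change of −0.02 ± 0.16 (edgeR adjusted p = 0.978, exact permutation p = 0.8). With limma on log2(FPKM + 0.1) its sign turned, to 0.057, where the median of all genes was 0.11. The alpha genes together reached only 0.840, 0.441 and 1.03 CPM in the E18.5 libraries, against 0.590, 0.517 and 0.976 CPM in the E16.5 libraries. These alpha sums rested on between 31 and 69 estimated counts per library at E18.5 and between 37 and 67 at E16.5. Their log2 change was 0.15 ± 0.52 (adjusted p = 0.940, exact permutation p = 0.9), and the stages overlapped.

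**Figure D1:**
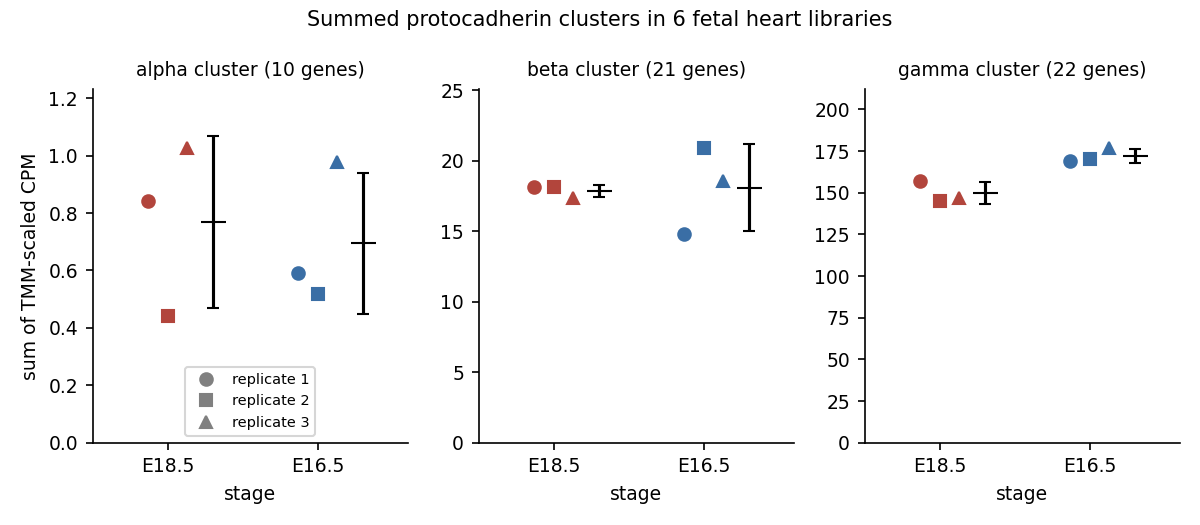
Summed level of the alpha (10 genes), beta (21 genes) and gamma (22 genes) clusters in TMM-scaled CPM for each library, E18.5 left and E16.5 right, with the mean and SD of 3 libraries in black; each panel has its own axis from 0. The gamma sums do not overlap between the stages (150 ± 6.66 against 172 ± 4.17 CPM), and the beta and alpha sums do. Of single tested genes, 8.02% have E18.5 below without overlap.

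Within the gamma cluster, 3 genes led by level per length. Pcdhga12, the last of the type A genes, averaged 4.86 ± 1.73 FPKM at E18.5 and 5.19 ± 1.71 FPKM at E16.5. Pcdhgc3, a C-type gene whose product is known to bind Axin1 and dampen Wnt signalling, averaged 4.38 ± 1.37 FPKM at E18.5 and 5.24 ± 0.741 FPKM at E16.5. Pcdhga4, an alternate type A gene that mediates same-isoform binding between cells, averaged 3.92 ± 0.212 FPKM at E18.5 and 4.49 ± 0.413 FPKM at E16.5. At either stage these means differ by less than the SD of Pcdhga12, so no order among the 3 genes is shown. Together the 3 genes made up 52.7%, 56.3% and 39.0% of the gamma FPKM in the E18.5 libraries, and 52.8%, 41.7% and 64.5% in the E16.5 libraries.

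None of these leading genes passed the test between stages. Pcdhga12 had 49.2, 35.5 and 19.3 CPM in E18.5 libraries, against 32.6, 29.5 and 55.6 CPM in E16.5 libraries. The highest and the lowest values of Pcdhga12 were in replicate 3 of either stage, and the stages overlapped (log2 change −0.18 ± 0.35, adjusted p = 0.886). Pcdhgc3 had 18.9, 31.3 and 24.4 CPM in E18.5 libraries, against 34.8, 24.4 and 39.8 CPM in E16.5 libraries. Its stages overlapped as well, with a log2 change of −0.41 ± 0.23 (adjusted p = 0.610). Pcdhga4 was the steadiest gamma gene, at 20.7, 19.7 and 17.9 CPM in E18.5 libraries and 26.0, 20.5 and 25.6 CPM in E16.5 libraries. Of its transcript, 62.5% of stretches occur in another gene, the highest portion in the gamma cluster. E18.5 replicate 1 of Pcdhga4 lay just above E16.5 replicate 2, and the log2 change was −0.31 ± 0.15 (adjusted p = 0.555).

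**Figure D2:**
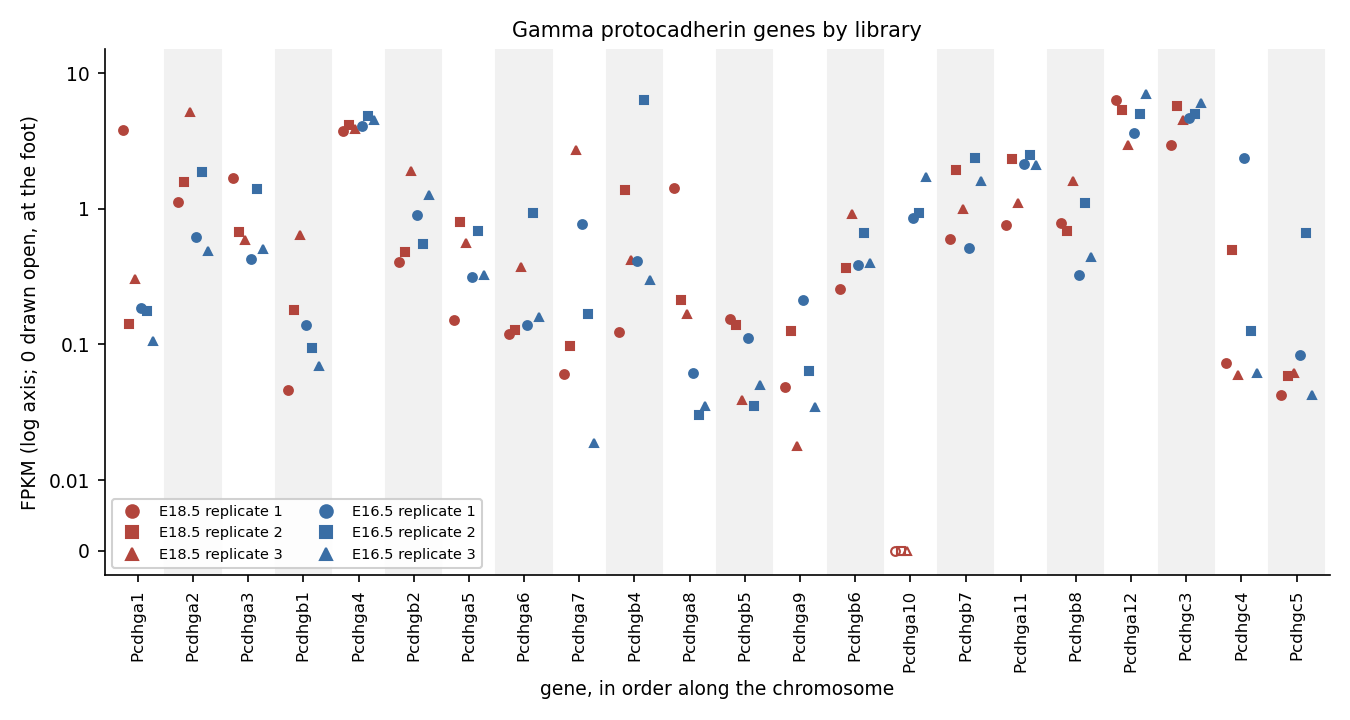
FPKM of each of the 22 gamma genes in every library on a log axis, genes in order along the chromosome, E18.5 in red left of E16.5 in blue and symbols for replicates; 0 is drawn open at the foot. Pcdhga4, Pcdhga12 and Pcdhgc3 stay near the top in all 6 libraries, Pcdhga10 is at 0 in the 3 E18.5 libraries, and Pcdhga1, Pcdhga8, Pcdhgc4 and Pcdhgc5 each have 1 library far above the others.

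Pcdhga10, an alternate type A gene, was the member that differed between the stages. It had 0 estimated counts in all 3 E18.5 libraries, against 346, 316 and 659 counts in the E16.5 libraries. On the CPM scale the E16.5 values were 5.52, 3.89 and 9.60, so that the gene was present at a moderate level in each E16.5 library and at no counted level in any E18.5 library. Set against a floor of 3 counts over the stage, 0.0147 CPM, the gene was at least 423-fold lower at E18.5 (edgeR, adjusted p = 0.0106). The floor covers counting error only. Leaving out each library in turn gave an adjusted p between 0.00771 and 0.0482. At E16.5 the gene supplied 3.26%, 2.29% and 5.43% of the gamma counts after scaling. Only 19 genes of the whole table had 0 counts in every E18.5 library beside a mean of at least 20 counts at E16.5, and Pcdhga10 was the single member among them. The opposite pattern, 0 counts in every E16.5 library, was found in 19 genes and in no member.

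The genes next to Pcdhga10 did not show this pattern. Pcdhgb6, the type B gene before it, had 1.43, 1.73 and 4.25 CPM at E18.5 and 2.46, 2.75 and 2.24 CPM at E16.5, a log2 change of −0.01 ± 0.42. Pcdhgb7, the type B gene after it, had 3.32, 9.10 and 4.64 CPM at E18.5 and 3.30, 10.03 and 9.02 CPM at E16.5, a log2 change of −0.39 ± 0.47. Both genes overlapped between the stages. With Pcdhga10 left out, the other 21 gamma genes summed to 157, 145 and 147 CPM in E18.5 libraries and to 164, 166 and 167 CPM in E16.5 libraries, and the stages still did not overlap. Of the Pcdhga10 transcript, 43.0% of stretches occur in another gene. Whether the split of shared reads between genes had a part in the zeros was not tested. The span of Pcdhga10 also overlaps that of Gm26672, a long non-coding RNA on the minus strand that overlaps 19 member spans in all. Gm26672 had 2.01, 1.39 and 1.55 CPM at E18.5 and 1.85, 0.825 and 1.37 CPM at E16.5 (log2 change 0.29 ± 0.38, adjusted p = 0.826). Spans include introns, and overlap of exons was not tested. BC037039 and Gm29994, also long non-coding RNAs on the minus strand, overlap 20 and 22 member spans. Use of strand in the counting is not stated, so reads of overlapping genes on opposite strands may not have been told apart.

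Each single gamma gene varied more from library to library than the sum of all 22 did. The coefficient of variation (CV) over all 6 libraries was 8.22% for the sum of the 22 genes, against a median of 75.4% for single gamma genes, with a range of 15.2% to 192%. A sum of many genes tends to vary less than its parts. A split of shared reads can also change single genes without changing the sum. Whether the genes offset each other was not tested. Of parts of the cluster picked by their values in these libraries, the sum without Pcdhga10 varied less than the whole, with a CV of 6.22%. Other such parts varied more. The 3 leading genes summed to 88.9, 86.5 and 61.6 CPM at E18.5 and to 93.3, 74.4 and 121 CPM at E16.5, a CV of 22.8%. The 18 genes other than these and Pcdhga10 summed to 68.4, 58.6 and 85.0 CPM at E18.5 and to 70.4, 91.7 and 46.3 CPM at E16.5, a CV of 23.8%. The median CV over all tested genes was 24.3%. In 9 of the 22 gamma genes the CV was over 100%, a spread that 2.52% of all tested genes had. These include Pcdhga10, at 124%, where the spread takes in the difference between the stages. Pcdhga4 and Pcdhgc3 were the only gamma genes under 30%.

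In 4 of the 22 gamma genes, 1 library held at least 5 times the value of the next, a pattern found in 0.0852% of all tested genes and in 0 of 19 tested beta genes. Pcdhga1, the first type A gene of the cluster, had 24.1, 0.768 and 1.61 CPM in the E18.5 libraries, against 1.37, 0.850 and 0.685 CPM in the E16.5 libraries. E18.5 replicate 1 was thus 15.0 times the next library, and the other 5 libraries lay close together. Pcdhga8, another type A gene, had 7.86, 1.01 and 0.788 CPM in the E18.5 libraries, against 0.399, 0.136 and 0.204 CPM in the E16.5 libraries. Again E18.5 replicate 1 stood out, at 7.79 times the next, but here all E18.5 libraries lay above all E16.5 libraries.

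The other 2 such genes were C-type genes, with the high library at E16.5. Pcdhgc4, which is known for its need in the survival of developing neurons, had 0.480, 2.80 and 0.327 CPM in the E18.5 libraries, against 18.1, 0.641 and 0.408 CPM in the E16.5 libraries. Only E16.5 replicate 1 was high, at 6.45 times the next library. Pcdhgc5, whose product is known to bind GABA-A receptors in brain, had 0.390, 0.455 and 0.461 CPM in the E18.5 libraries, against 0.877, 4.52 and 0.393 CPM in the E16.5 libraries. Its high library was E16.5 replicate 2, at 5.16 times the next. Pcdhgc3, the remaining gamma C-type gene, had no such library.

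Beyond those 4, Pcdhga2, a type A gene, had 6.14, 7.42 and 23.7 CPM in the E18.5 libraries, against 3.99, 7.79 and 2.72 CPM in the E16.5 libraries. It was highest in E18.5 replicate 3, and the stages overlapped. Pcdhgb4 reached 33.1 CPM in E16.5 replicate 2 and at most 8.02 CPM elsewhere. Pcdhga7 reached 14.0 CPM in E18.5 replicate 3 and ranged from 0.117 to 5.44 CPM elsewhere. Of these 7 genes, the high library was E18.5 replicate 1 for Pcdhga1 and Pcdhga8, E18.5 replicate 3 for Pcdhga2 and Pcdhga7, E16.5 replicate 2 for Pcdhgb4 and Pcdhgc5, and E16.5 replicate 1 for Pcdhgc4. The gamma gene with the highest FPKM was Pcdhga12 in E18.5 replicate 1, Pcdhgc3 in E18.5 replicate 2 and Pcdhga2 in E18.5 replicate 3. At E16.5 it was Pcdhgc3 in replicate 1, Pcdhgb4 in replicate 2 and Pcdhga12 in replicate 3. Each of these genes shares between 40% and 65% of its stretches with others. How far the split of shared reads contributed to single high libraries was not tested.

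**Figure D3:**
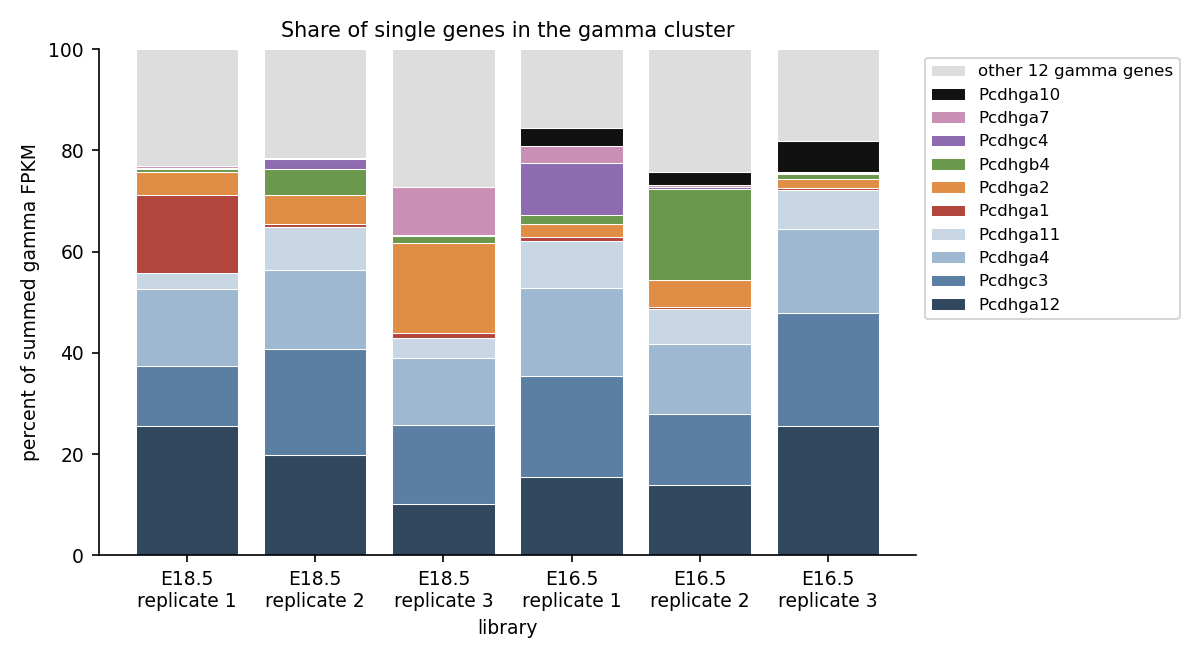
Percent of the summed gamma FPKM held by single genes in each library, E18.5 libraries left of E16.5 libraries, with the other 12 genes pooled in grey. Pcdhga4 holds between 13.3% and 17.4% throughout, while Pcdhga1 holds 15.5% only in E18.5 replicate 1, Pcdhga2 17.7% in E18.5 replicate 3, Pcdhgc4 10.2% in E16.5 replicate 1 and Pcdhgb4 17.97% in E16.5 replicate 2.

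Set against the stage contrast, these spreads left few gamma differences. Of the 22 gamma genes, 0 were higher at E18.5 and 1, Pcdhga10, was lower at an adjusted p under 0.05. At an unadjusted p under 0.05, 3 were higher (Pcdhga8, Pcdhga1 and Pcdhga2) and 3 were lower (Pcdhga10, Pcdhgc5 and Pcdhga11), beside 4.83% and 4.70% of all tested genes. Pcdhga8 had the largest positive log2 change, 3.72 ± 0.96 (adjusted p = 0.267), which was 1.86 without E18.5 replicate 1 (adjusted p = 0.484). DESeq2, which was run as an alternative and called 1.58% of its 21718 genes with an adjusted p, called Pcdhga8 higher as well (adjusted p = 5.84e-04) beside Pcdhga10.

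The log2 changes of the other named gamma genes did not pass the adjusted threshold. They were 3.19 ± 1.15 for Pcdhga1 (adjusted p = 0.432), 1.36 ± 0.56 for Pcdhga2 (adjusted p = 0.499) and −2.15 ± 0.82 for Pcdhgc5 (adjusted p = 0.460). Each of these 3 rested largely on 1 library. The log2 change was 0.29 for Pcdhga1 without E18.5 replicate 1, 0.49 for Pcdhga2 without E18.5 replicate 3 and −0.54 for Pcdhgc5 without E16.5 replicate 2. Pcdhgc4 had a log2 change of −2.40 ± 1.40 (adjusted p = 0.615), and turned to 1.19 without E16.5 replicate 1. Pcdhga11, the fourth gene by level and a type A gene, had 4.23, 11.02 and 5.18 CPM in the E18.5 libraries, against 13.8, 10.5 and 11.9 CPM in the E16.5 libraries. E18.5 replicate 2 lay within the E16.5 range and the other E18.5 libraries below it (log2 change −0.83 ± 0.34, adjusted p = 0.497). By type, the A genes summed to 124, 84.1 and 89.7 CPM at E18.5 and to 96.3, 87.0 and 112 CPM at E16.5. The B genes summed to 13.7, 26.4 and 31.7 CPM at E18.5 and to 19.2, 53.5 and 24.0 CPM at E16.5. The C-type genes summed to 19.8, 34.5 and 25.2 CPM at E18.5 and to 53.7, 29.6 and 40.6 CPM at E16.5, and each of the 3 types overlapped between the stages.

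Beta genes were lower per length than the leading gamma genes, and their median CV over the 6 libraries was lower than that of gamma genes. Their mean over all 6 libraries ran from 0.0150 FPKM to 0.667 FPKM, with a median of 0.109 FPKM, against a median of 0.716 FPKM and a maximum of 5.02 FPKM in the gamma cluster. Of 21 beta genes, 18 were above 0 in all 6 libraries. The CV of the 19 tested beta genes had a median of 47.9% and a range of 12.8% to 104%. The biological coefficient of variation in the edgeR fit, which has stage as a term, did not show this difference. Its median was 50.3% for tested beta genes and 49.6% for gamma genes. Genes toward the gamma end of the beta cluster had the higher levels: across the 21 genes, the order along the chromosome and the mean FPKM had a Spearman coefficient of 0.683, a description over genes of the same libraries. The same coefficient over the 22 gamma genes was 0.0175.

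The 5 beta genes with the highest mean FPKM, all adhesion proteins made from a single exon, were Pcdhb17, Pcdhb20, Pcdhb22, Pcdhb15 and Pcdhb18. Pcdhb17 had 3.32, 3.65 and 2.54 CPM in the E18.5 libraries, against 3.36, 3.60 and 3.70 CPM in the E16.5 libraries. It was the steadiest member of all, with a CV of 12.8% and a log2 change of −0.16 ± 0.24 (adjusted p = 0.846). Pcdhb20 had 2.45, 1.36 and 2.29 CPM at E18.5 and 1.69, 3.18 and 2.53 CPM at E16.5, a log2 change of −0.28 ± 0.35. Pcdhb22 had 2.48, 2.99 and 2.20 CPM at E18.5 and 2.84, 3.17 and 3.36 CPM at E16.5, a log2 change of −0.29 ± 0.25. In both genes the libraries of the stages interleaved. Pcdhb15 had 0.750, 0.668 and 1.12 CPM at E18.5 and 1.02, 1.49 and 0.961 CPM at E16.5, a log2 change of −0.46 ± 0.41. Pcdhb18 had 2.07, 1.05 and 0.803 CPM at E18.5 and 0.654, 1.53 and 1.27 CPM at E16.5, a log2 change of 0.18 ± 0.49 whose sign turned when either replicate 1 was left out. None of the 5 passed the adjusted threshold, and each overlapped between the stages.

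Of the 19 beta genes tested, 0 were higher and 0 lower at an adjusted p under 0.05, and 0 reached an unadjusted p under 0.05 in either direction. Their median log2 change was 0.15, with 10 above 0 and 9 below, beside a median of −0.0019 over all tested genes. The 3 with the smallest p were Pcdhb7, Pcdhb5 and Pcdhb10. Pcdhb7 had 1.11, 0.796 and 1.23 CPM in the E18.5 libraries, against 0.319, 0.789 and 0.495 CPM in the E16.5 libraries. E18.5 replicate 2 and E16.5 replicate 2 nearly met, though the stages did not overlap (log2 change 0.96 ± 0.49, adjusted p = 0.569). Pcdhb5 had 0.420, 0.398 and 0.417 CPM in the E18.5 libraries, against 0.159, 0.320 and 0.0437 CPM in the E16.5 libraries. Its E18.5 libraries lay close together above all E16.5 libraries, but the lowest E16.5 value, in replicate 3, rested on 3 counts (log2 change 1.22 ± 0.82, adjusted p = 0.659). Pcdhb10 had 0.210, 0.341 and 0.0893 CPM in the E18.5 libraries, against 0.590, 0.283 and 0.466 CPM in the E16.5 libraries, with overlap (log2 change −1.05 ± 0.74, adjusted p = 0.675). On the FPKM scale the stages overlapped in Pcdhb7 and Pcdhb5. Pcdhb2 and Pcdhb6, with at most 15 and 8 counts in any library, were too low to be tested.

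**Figure D4:**
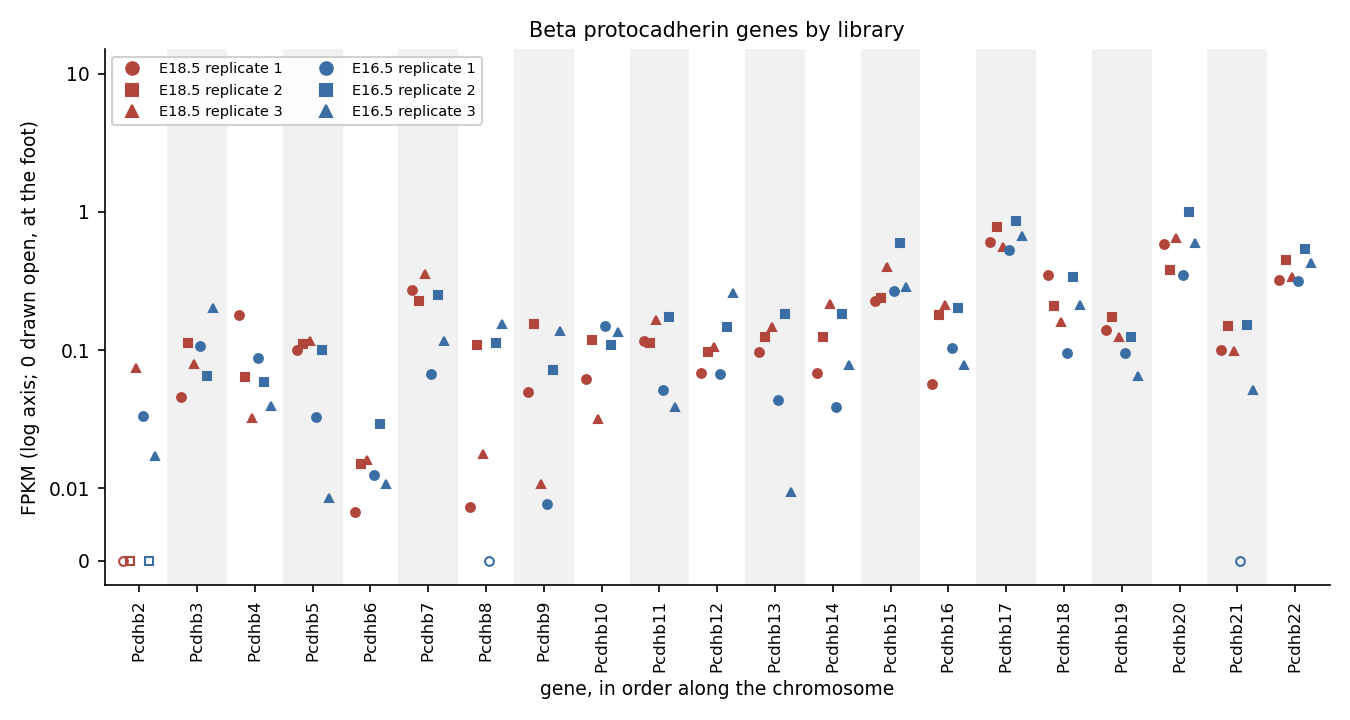
FPKM of each of the 21 beta genes in every library on a log axis, genes in order along the chromosome, E18.5 in red left of E16.5 in blue and symbols for replicates; 0 is drawn open at the foot. Levels are higher toward the right (Pcdhb17 has the highest mean, 0.667 FPKM), and on this scale the stages overlap in every gene but Pcdhb19.

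Alpha genes were close to the limit of detection. Pcdhac2, the C-type gene that serotonergic neurons are known to need for spacing their axons, was the only alpha gene above 0 in all 6 libraries. It had 37, 25 and 24 estimated counts in the E18.5 libraries, against 9, 32 and 18 in the E16.5 libraries. The stages overlapped, and its level of 0.0663 ± 0.0117 FPKM at E18.5 and 0.0426 ± 0.0288 FPKM at E16.5 did not pass the test (log2 change 0.65 ± 0.67, adjusted p = 0.770). The 9 alternate alpha genes were too low to be tested. Of these, 7 had counts in 1 library only and 2 had counts in 2 libraries.

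The alternate alpha genes with counts differed from library to library. Pcdha1 had 0, 0 and 37 estimated counts in the E18.5 libraries, against 0, 0 and 6 in the E16.5 libraries. Pcdha5 had 0, 6 and 0 in the E18.5 libraries, against 0, 0 and 32 in the E16.5 libraries. Pcdha10 had 19 in E18.5 replicate 1 and 0 elsewhere, and Pcdha9 had 19 in E16.5 replicate 1 and 0 elsewhere. Summed over the 9 genes, the alternate alphas had 19, 6 and 45 counts in the E18.5 libraries, against 28, 10 and 49 in the E16.5 libraries. With so few counts no difference between stages was detectable at this depth, and 3 counts correspond to between 0.0426 and 0.0450 CPM at E18.5 and between 0.0370 and 0.0478 CPM at E16.5.

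Over all 3 clusters, 42 of the 53 genes passed the filter on low counts, namely 1 alpha, 19 beta and 22 gamma genes. Among those, 0 were called higher and 1 was called lower, and 20 had a log2 change above 0 and 22 below. The libraries of the stages did not overlap in 3 genes with E18.5 above (Pcdhb5, Pcdhb7 and Pcdhga8) and in 1 with E18.5 below (Pcdhga10) on the CPM scale, beside 8.45% and 8.02% of all tested genes. On the FPKM scale the non-overlap was seen in Pcdhga8 and Pcdhga10 as well, and in Pcdhb19 with E18.5 above. The share of all genes without overlap was not computed on the FPKM scale. Apart from Pcdhga10, the smallest adjusted p was 0.267.

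**Figure D5:**
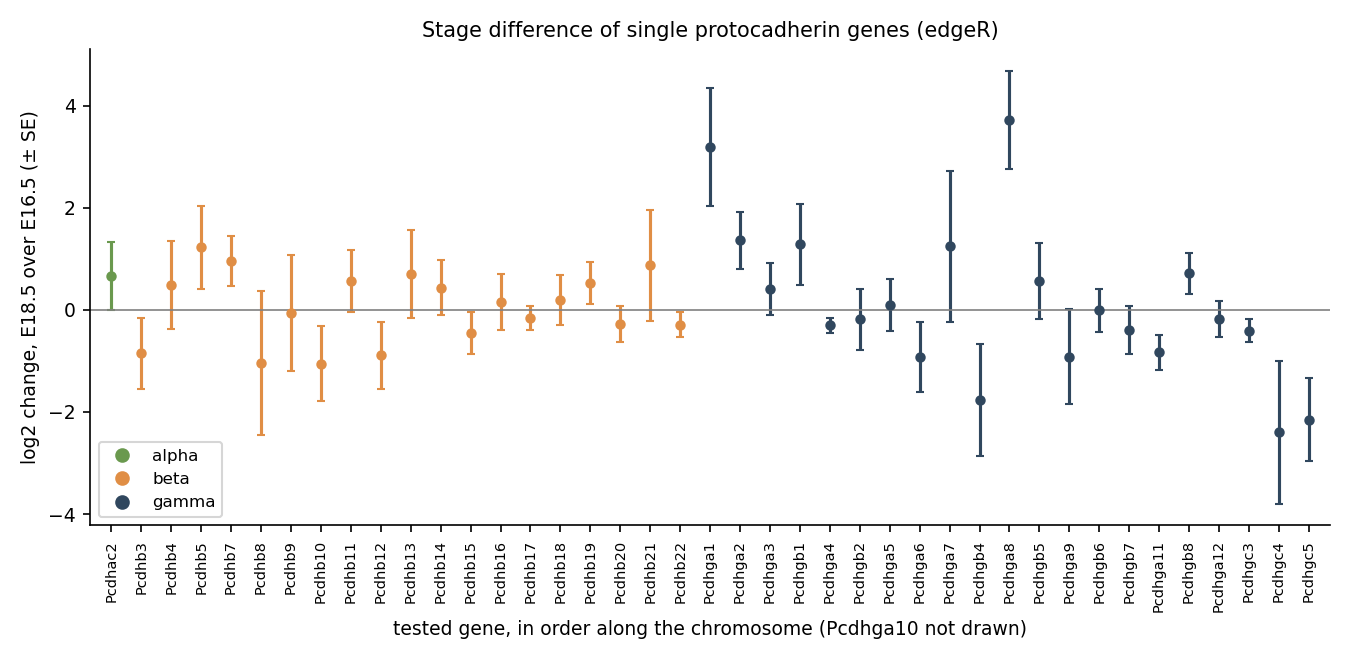
Log2 change (E18.5 over E16.5) with its standard error for the tested alpha, beta and gamma genes in order along the chromosome; Pcdhga10 is not drawn, since it is at 0 in every E18.5 library. Most changes lie within 1 of 0, and the widest are those of Pcdhga8 (3.72 ± 0.96), Pcdhga1 (3.19 ± 1.15), Pcdhgc4 (−2.40 ± 1.40) and Pcdhgc5 (−2.15 ± 0.82).

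Genes that act with the clustered protocadherins were read from the same fit. Among 26 genes for promoter choice at the clusters (CTCF, cohesin, DNA methylation and heterochromatin genes), all were tested and 0 were called in either direction, with a median log2 change of 0.00035. Setdb1, a histone H3 lysine methyltransferase known to restrain CTCF binding at these clusters in neurons, had 59.6, 64.3 and 57.8 CPM in the E18.5 libraries, against 103, 77.9 and 86.6 CPM in the E16.5 libraries. All E18.5 libraries lay below all E16.5 libraries, at a log2 change of −0.56 ± 0.14 that missed the threshold (adjusted p = 0.261), while DESeq2 gave an adjusted p of 0.0489. Without E16.5 replicate 2 the edgeR fit gave Setdb1 a log2 change of −0.65 (adjusted p = 0.0478). Atf7ip, the partner of Setdb1, had a log2 change of −0.27 ± 0.13 (adjusted p = 0.550), and Smc1a, a cohesin subunit, had −0.25 ± 0.12 (adjusted p = 0.553). Like Setdb1, Smc1a and Rest of this list had all E18.5 libraries below, and Dnmt3b had them above. Of all tested genes, 8.02% lay below and 8.45% above in this way. By level this list was led by Trim28, a heterochromatin scaffold, at 36.5 ± 4.56 FPKM at E18.5 and 32.5 ± 10.6 FPKM at E16.5. It was followed by Rad21, a cohesin subunit, at 27.0 ± 6.31 FPKM at E18.5 and 23.3 ± 14.6 FPKM at E16.5, and by the histone methyltransferase Ehmt2 at 22.1 ± 0.716 FPKM at E18.5 and 21.1 ± 2.81 FPKM at E16.5.

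Among 30 intracellular partners, which include the WAVE actin complex, adhesion kinases and the proteases that process protocadherins, 0 were called, with a median log2 change of 0.07. The highest levels were those of Ctnnb1, the beta-catenin gene, at 65.5 ± 2.74 FPKM at E18.5 and 60.5 ± 24.7 FPKM at E16.5. Brk1, a WAVE complex subunit, had 42.7 ± 10.3 FPKM at E18.5 and 40.8 ± 21.4 FPKM at E16.5, and Marcks, a membrane protein that binds actin, had 36.9 ± 6.29 FPKM at E18.5 and 38.6 ± 16.7 FPKM at E16.5. The smallest p in this list belonged to Pdcd10, which is known to bind gamma protocadherin tails (log2 change 0.78 ± 0.30, adjusted p = 0.462), to Ncstn, a gamma-secretase subunit (log2 change −0.28 ± 0.13, adjusted p = 0.542), and to Cyfip1, a WAVE subunit (log2 change 0.29 ± 0.15, adjusted p = 0.573). The list also holds Ret, a receptor kinase, which was called higher only without E16.5 replicate 2 (adjusted p = 0.0429) among the fits run.

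Markers of cells in which clustered protocadherins are best known were present at low levels. The summed level of 22 autonomic neuron markers was 122, 112 and 123 CPM in the E18.5 libraries, against 136, 147 and 119 CPM in the E16.5 libraries. The stages overlapped, none of the markers was at 0 in all libraries, and 0 of 18 tested markers were called. For 12 Schwann cell and neural crest markers the sums were 51.3, 63.9 and 57.0 CPM at E18.5 and 55.1, 58.3 and 45.0 CPM at E16.5, with 0 of 10 called and a median log2 change of 0.40. Of other heart cell types, 3 marker lists had summed levels that did not overlap between stages, each with E18.5 above. The cardiomyocyte, endothelial, macrophage and erythroid sums overlapped. Among single tested genes, 8.45% had all E18.5 libraries above all E16.5 libraries. The 10 epicardial markers summed to between 179 and 237 CPM at E18.5 and between 114 and 125 CPM at E16.5, and 1 of them, the keratin gene Krt19, was called higher. The 8 mural cell markers summed to between 950 and 1062 CPM at E18.5 and between 776 and 789 CPM at E16.5, and the 10 fibroblast markers to between 3913 and 5108 CPM at E18.5 and between 2375 and 3696 CPM at E16.5, with 0 called in either list. The part of cell composition in the gamma sum and in Pcdhga10 was not tested.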

How the data were processed

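Polyadenylated RNA was sequenced as paired-end, dUTP-marked libraries with unique molecular identifiers, per the labels' protocols. Named in the submitters' processing notes, with no role for each, are StringTie 1.3.4d, HISAT2 2.0.4, cutadapt 1.9, UMI-tools and the build mm9. Per the file headers, the deposited table gives 2 values per gene in every library, an estimated count and an FPKM. Estimated counts deposited by the authors were whole numbers and were used without rounding; of 29787 counts of 20 or fewer, 99.9% were at or above the number that FPKM implies (tolerance 2%). Deposited coordinates belong to another build than GRCm38 and are not printed. No source states how reads of shared exons were divided between genes.

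Stages were compared in the whole table with edgeR 4.0.16 in R 4.3.3 (filterByExpr, TMM, quasi-likelihood test, two-sided, stage as the only term), with Benjamini-Hochberg adjustment over 19959 genes and a threshold of 0.05. The common biological coefficient of variation was 34.3%. For cluster sums, the counts of a cluster's genes were replaced by their sum. The standard error is the absolute log2 change over the square root of F. The fit was tested on simulated data. Alternatives used DESeq2 1.42.0, limma 3.58.1 on log2(FPKM + 0.1) and log2(FPKM + 1), other scalings, no filter, no mitochondrial genes, a replicate block and each library left out.

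Members and gene lists were chosen with earlier results of these data known. Named with values were the cluster sums, members called, the 5 of each cluster with the highest mean FPKM, C-type genes and the 3 of each cluster with the smallest p, and from each list of genes that act with them the 3 highest in FPKM and the 3 with the smallest p. Pcdhgb4, Pcdhga7, Pcdhgb6, Pcdhgb7 and the genes named for sequence sharing or non-overlap were added after their values were seen.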

Additional observations from a re-analysis of the deposited data

How the results depend on the processing

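Pcdhga10 was called lower at E18.5 in every setting but limma on log2(FPKM + 1), where the log2 change was −1.09 and 0 members were called lower. DESeq2 called 1 member higher, Pcdhga8 (log2 change 3.71), and 1 related gene lower, Setdb1. The gamma sum kept its sign in all settings and passed the threshold in none; its log2 change lay between −0.25 and −0.18 with each library left out and was −0.08 on both FPKM scales. The beta sum turned to 0.057 and 0.036 with limma on log2(FPKM + 0.1) and log2(FPKM + 1), and ran from −0.15 to 0.10 with each library left out. On these scales the median of all genes moved to 0.11 and 0.056. The alpha sum ran from −0.12 to 0.46 with each library left out. Without E16.5 replicate 2, 1 related gene was called higher (Ret) and 2 lower (Setdb1 and Cdh20), while the whole table gave 250 higher and 121 lower calls in place of 19 and 11; DESeq2 gave 204 and 139. In the other leave-one-out fits 0 related genes were called. Among the 19 tested genes that the naming rule chose, 3 changed sign, each with 1 library left out: Pcdhb18 (from −0.32 to 0.44, below 0 without E16.5 or E18.5 replicate 1), Pcdhga12 (from −0.52 to 0.15, above 0 without E16.5 or E18.5 replicate 3) and Pcdhgc4 (from −3.97 to 1.19, above 0 without E16.5 replicate 1). The cause of these changes was not tested. Libraries with the same replicate number deviated together with correlations of 0.24, 0.33 and −0.08, so the numbers are not shown to pair the libraries. With the replicate block the log2 changes of the alpha, beta and gamma sums were 0.12, −0.0059 and −0.20, the members called were 0 higher and 1 lower, and Pcdhga10 had an adjusted p of 0.00349. Depth limits the alpha genes, of which 9 could not be tested.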

Other observations

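Relatives of the clustered protocadherins outside the clusters were read from the same fit. Of 12 protocadherins outside the clusters and 13 larger relatives that were tested, 0 were called in either direction. Among the 12 protocadherins, Pcdh7, Pcdh1 and Pcdh12, the last known from endothelium, had the highest levels. Pcdh7 averaged 2.39 ± 0.512 FPKM at E18.5 and 2.02 ± 0.793 FPKM at E16.5. Pcdh1 averaged 1.34 ± 0.435 FPKM at E18.5 and 1.45 ± 0.619 FPKM at E16.5, and Pcdh12 averaged 1.40 ± 0.265 FPKM at E18.5 and 1.21 ± 0.729 FPKM at E16.5. The smallest p of this list belonged to Pcdh19 (log2 change −0.47 ± 0.32), Pcdh18 (−0.28 ± 0.21) and Pcdh11x (−0.70 ± 0.54), with an adjusted p of at least 0.661. Of the larger relatives, Clstn1, a calsyntenin of the secretory route, averaged 10.4 ± 0.633 FPKM at E18.5 and 8.65 ± 3.86 FPKM at E16.5. Fat1, a giant cadherin, averaged 3.74 ± 2.09 FPKM at E18.5 and 3.16 ± 0.973 FPKM at E16.5, and Celsr1, a planar polarity cadherin, averaged 2.87 ± 0.197 FPKM at E18.5 and 3.03 ± 0.311 FPKM at E16.5. Clstn2 lay above in all E18.5 libraries (log2 change 0.78 ± 0.32, adjusted p = 0.485) and Fat3 below (−0.57 ± 0.23, adjusted p = 0.492), and Fat4 had −0.25 ± 0.17 (adjusted p = 0.656). Of all tested genes, 8.45% lay above and 8.02% below without overlap.

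Of 12 tested classical cadherins, which join cells through catenins, 11 had a log2 change below 0, with a median of −0.41, beside −0.0019 over all tested genes, and 0 were called. Cdh20 had 2.10, 1.63 and 2.02 CPM in the E18.5 libraries, against 5.20, 2.34 and 5.32 CPM in the E16.5 libraries, a log2 change of −1.16 ± 0.35 without overlap (adjusted p = 0.353). Without E16.5 replicate 2 its log2 change was −1.45 (adjusted p = 0.0429). Among all tested genes, 8.02% had E18.5 below without overlap. Cdh11, a cadherin of mesenchymal cells, had 43.3, 38.4 and 32.1 CPM at E18.5 and 41.0, 68.9 and 51.7 CPM at E16.5 (log2 change −0.50 ± 0.20, adjusted p = 0.485). Cdh5 of endothelium and Cdh2 of myocardium, the highest by FPKM, had log2 changes of 0.17 ± 0.15 and −0.15 ± 0.14, and Cdh10 had −0.66 ± 0.44, all with an adjusted p of at least 0.659.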
